A study of Homo sapiens with 52 samples.

Results

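The integrated stress response and the amino acid genes it controls were followed in senescing WI-38 cells through 31 genes, chosen by symbol with earlier results of these data known. All 31 were found among the 59408 genes listed, and all 31 were among the 15606 genes that were tested. WI-38 is a line of normal human lung fibroblasts, so every value describes 1 line. Cells were wild type throughout, and the comparison group, untreated young cells, was shared by every group. Plasma membrane damage-dependent senescence (PMD-Sen) was induced with 0.0090% SDS, a detergent, calcium influx-dependent senescence (Ca2+-Sen) with 75 mM KCl, and DNA damage response-dependent senescence (DDR-Sen) with 250 nM doxorubicin (DXR), which damages DNA. Each inducer was present for 24 h and then washed away, which marks day 0, and RNA was sequenced on each of days 0 to 4 and again on days 6, 8 and 16. Replicatively senescent cells (RS) had been passaged until they stopped dividing. Each of the 26 groups had 2 libraries, 52 in all.

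The integrated stress response is a shared answer of cells to amino acid shortage, misfolded protein in the endoplasmic reticulum, haem deficiency and double-stranded RNA. Kinases that sense these stresses phosphorylate the translation factor eIF2, which slows translation of most mRNAs but allows that of ATF4. ATF4 is a transcription factor that pairs with C/EBP family partners and switches on genes for amino acid synthesis, amino acid uptake and tRNA charging, together with regulators such as CHOP (DDIT3) and TRIB3 that feed back on the response. The sequencing reads mRNA levels only, so neither eIF2 phosphorylation nor ATF4 protein was measured.

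The levels below are normalised read counts per library, worked out from the deposited group means and put on 1 scale, and a level is given first for the library with more counted reads and then for the one with fewer. The libraries held 15.3 to 55.5 M counted reads (median 29), and the untreated libraries, with 19.0 and 15.3 M, were the smallest. Differences are log2 differences of the normalised count plus 1, given with their standard error from limma, and a gene was called at a Benjamini-Hochberg adjusted p below 0.05 over all genes tested. Shares of all genes called come from this fit. Counts of members from other fits, such as another scaling or a library left out, have no such share beside them. They therefore do not show whether the calls over all genes changed as well. Where only the mean of a pair could be worked out, it is named as a pair mean, was entered as 1 library, and has no spread of its own. The fibroblast label was checked on 9 marker genes, whose summed level per kb of exon ran from 50370 to 134742 over the 52 libraries, against at most 1913 for 4 epithelial, 30.4 for 3 endothelial and 6.17 for 3 leukocyte markers. Fewer cells of a kind and less RNA per cell cannot be told apart in such bulk samples. The study's methods call the samples of a group independent without saying whether they were separate cultures, so p-values measure only the spread between these libraries. That spread was estimated jointly over all 26 groups, so standard errors do not follow the width of a single pair.

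C/EBP-ATF response elements, the composite sites at which ATF4 and a C/EBP partner meet, have the core TGATGNAA, where N is any base. This core was searched for on both strands in RefSeq promoter windows (GRCh38.p14) from 250 bases before to 50 bases after each annotated start, because the members were described together. Of the 24 members with a window, 7 held the core (29.2%), against 3.62% of the 35116 windows of all genes and 4.46% of the 27305 genes with a window. The stretches around the core are shown 5′ to 3′ on the gene's strand with the core in capitals. The core began 68 bases before the start in ASNS (chr7:97872409-97872658, minus strand), 209 before in CHAC1 (chr15:40953221-40953470, plus strand), 42 before in CEBPG (chr19:33373863-33374112, plus strand), 97 before in SLC1A5 (chr19:46784878-46784937, minus strand) and 16 before in JDP2 (chr14:75427980-75428021, plus strand). It began at base 38 after the start in SLC3A2 (chr11:62881725-62881748, plus strand) and at base 8 in SLC7A1 (chr13:29595663-29595688, minus strand). A gene can have several annotated starts. Those used for SLC1A5 and SLC3A2 lay well inside the annotated genes (chr19:46774883-46788594 and chr11:62856102-62888875), not at their 5′ ends. In CHAC1 and SLC3A2 the core lay on the other strand, so that its reverse complement is in capitals.
ASNS: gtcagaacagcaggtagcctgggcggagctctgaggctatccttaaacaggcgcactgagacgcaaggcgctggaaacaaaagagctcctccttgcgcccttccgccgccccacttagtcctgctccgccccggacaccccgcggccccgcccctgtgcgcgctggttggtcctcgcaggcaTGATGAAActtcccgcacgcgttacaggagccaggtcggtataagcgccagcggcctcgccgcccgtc
CHAC1: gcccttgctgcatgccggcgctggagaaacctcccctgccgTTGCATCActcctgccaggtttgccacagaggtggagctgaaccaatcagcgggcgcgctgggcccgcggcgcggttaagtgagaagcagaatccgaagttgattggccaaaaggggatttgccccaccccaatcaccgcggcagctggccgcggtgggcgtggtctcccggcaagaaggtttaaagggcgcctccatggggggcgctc
CEBPG: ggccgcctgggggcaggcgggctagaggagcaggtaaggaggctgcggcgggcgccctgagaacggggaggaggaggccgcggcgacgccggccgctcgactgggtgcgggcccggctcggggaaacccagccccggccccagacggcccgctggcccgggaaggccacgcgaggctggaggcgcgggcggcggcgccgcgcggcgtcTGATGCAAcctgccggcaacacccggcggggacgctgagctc
SLC1A5: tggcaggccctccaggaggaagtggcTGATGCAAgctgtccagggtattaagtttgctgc
JDP2: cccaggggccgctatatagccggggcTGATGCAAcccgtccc
SLC3A2: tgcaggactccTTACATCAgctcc
SLC7A1: gcactgcTGATGAAAcctggcgccgg
The windows of GPT2, PSPH, PYCR1, ALDH1L2, SLC7A11, NUPR1 and SHMT2 were not analysed here. On day 0 of PMD-Sen the 7 members with the core had a median log2 difference from untreated cells of 1.80 (0.39 to 3.51), and the 17 with a window but no core had a median of 2.34 (0.22 to 5.72). The ranges of both sets overlapped, and sequence outside the window was not searched.

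On day 0 of PMD-Sen, immediately after 24 h in SDS, 30 of the 31 members were higher than in untreated cells and 0 were lower. Over all genes tested, 26.5% were called higher and 29.1% lower in the same comparison. The median log2 difference was 2.24 over the members and -0.02 over all genes. Of the members, 27 were at least 2-fold and 20 at least 4-fold higher. Every value of all 31 members on that day lay above both untreated libraries. For SLC7A11, and for SLC38A2, whose difference did not pass the test, that value is a pair mean. It does not show where each of their libraries lay. The map of log2 differences shows this day as the column with the most called members among the 25 groups.

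**Figure D1:**
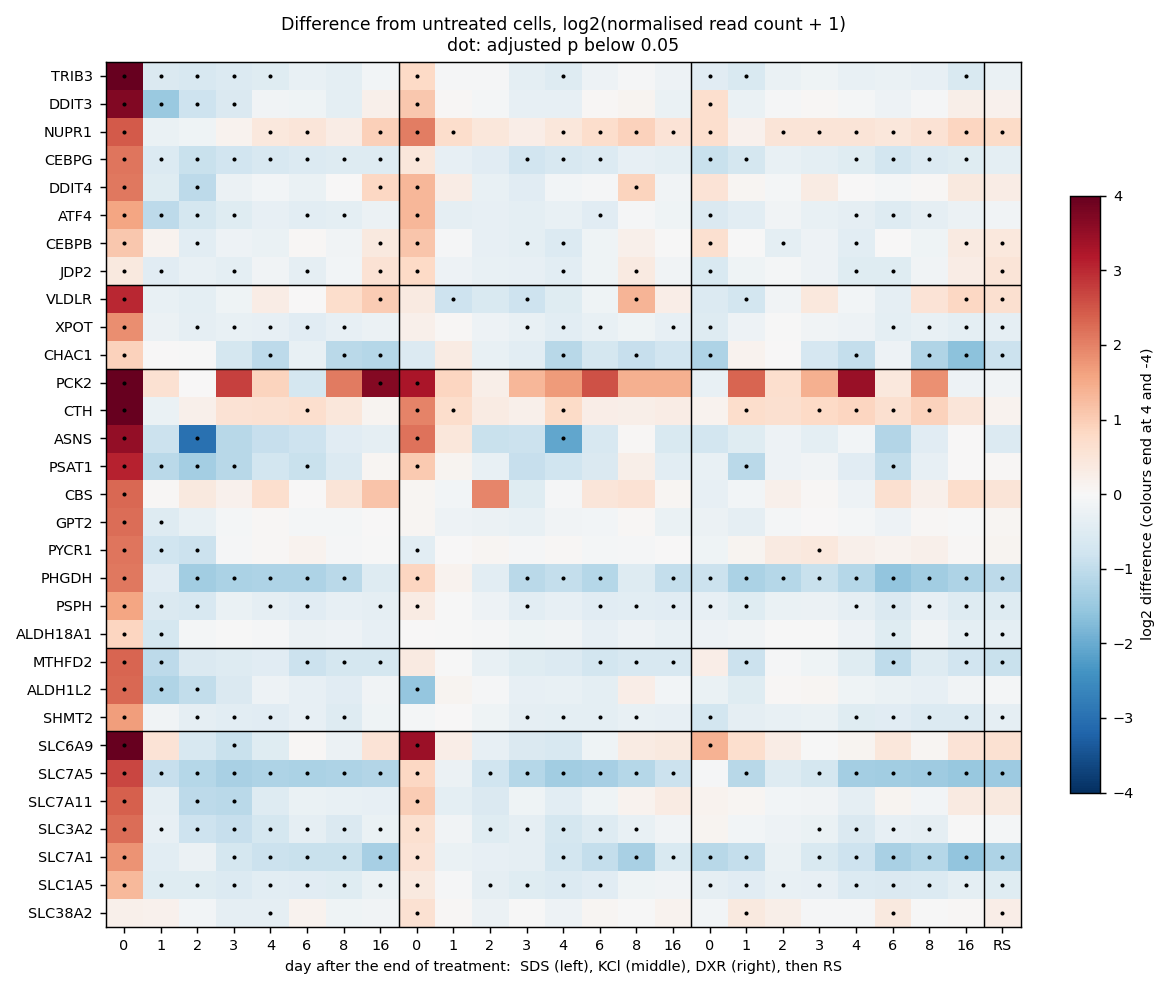
Log2 difference from untreated cells of the 31 members (rows, grouped by role) in the 25 treated or RS groups (columns, by inducer and day), with 2 libraries a group. Colours end at ±4, and a dot marks an adjusted p below 0.05. The SDS day 0 column is called higher for 30 members, the KCl day 0 column for 21 and the DXR day 0 column for 4.

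Among the transcription factors and regulators all 8 rose after SDS, with a median difference of 2.12. ATF4 itself stood at 6704 and 6490 in untreated cells and at 19294 and 19770 on day 0, a 2.96-fold difference (log2 1.57 ± 0.14, adjusted p = 6.86e-11). DDIT3, which encodes CHOP, a factor linked to cell death under prolonged stress, went from 298 and 277 to 3992 and 3510 (log2 3.70 ± 0.17, adjusted p = 3.75e-17). Neither gene's groups overlapped, and the pairs lay within 1.14-fold of each other.

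TRIB3, a pseudokinase that binds ATF4 and CHOP and restrains them, went from 809 and 666 to 14255 and 13875, or 19.1-fold (log2 4.26 ± 0.18, adjusted p = 1.68e-18). The C/EBP partners differed in size: CEBPG rose 4.39-fold, from 806 and 762 to 3398 and 3485, and CEBPB rose 2.10-fold, from 2689 and 3172 to 6534 and 5744. NUPR1, a small stress-induced chromatin protein, rose 5.44-fold (log2 2.44 ± 0.15), and DDIT4, an inhibitor of mTORC1, rose 4.31-fold (log2 2.11 ± 0.28). JDP2, a repressor of AP-1, had the smallest called difference, from 1159 and 1012 to 1380 and 1470 (log2 0.39 ± 0.13, adjusted p = 0.0116), and its call was lost in 3 of 14 other ways of processing.

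All 10 genes grouped under amino acid synthesis rose, with a median of 2.28. PCK2, whose product is phosphoenolpyruvate, was placed in this group. The serine pathway starts from a glycolytic intermediate with PHGDH, continues with PSAT1 and ends with PSPH, and these stood 4.31-fold, 8.49-fold and 3.01-fold above untreated cells. PSAT1 was at 2472 and 1377 in untreated cells and at 14803 and 16608 on day 0 (log2 3.09 ± 0.34, adjusted p = 3.24e-09). Its day 0 libraries lay far above the untreated pair, although that pair was itself spread 1.80-fold.

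The transsulfuration enzyme CTH, which releases cysteine from cystathionine, went from 32.7 and 30.1 to 976 and 1062 (log2 4.98 ± 0.23, adjusted p = 1.75e-17). Its partner CBS, which makes cystathionine, went from 142 and 88.2 to 781 and 400 (log2 2.31 ± 0.72, adjusted p = 0.00699). CBS shares its sequence with CBSL, an annotated near-identical copy, so the counts of either are uncertain, and the sum of both went from 415 and 194 to 1108 and 782. Proline is made by ALDH18A1 and then PYCR1, which rose 1.83-fold and 4.39-fold. GPT2, the mitochondrial alanine aminotransferase, rose 4.74-fold.

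ASNS, which makes asparagine, was a low gene in these tables, with 37.6 and 18.0 in untreated cells and 299 and 317 on day 0 (log2 3.51 ± 0.49, adjusted p = 2.86e-07). In the annotation used here ASNS overlaps 2 other genes, 1 of them on the other strand, and how reads in overlapping genes were counted is not given in the sources used here. PCK2, the mitochondrial enzyme that makes phosphoenolpyruvate, had 6 and 3 reads in the untreated libraries (levels of 9.81 and 6.01), and its day 0 libraries, at 134 and 1561, lay far apart. The log2 difference of 5.72 ± 1.31 (adjusted p = 0.000404) therefore says little about size.

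The 3 genes of mitochondrial folate metabolism, which passes single carbon units from serine to formate and on to purines, rose together. SHMT2 rose 3.15-fold (log2 1.66 ± 0.12), MTHFD2 rose 5.06-fold (log2 2.34 ± 0.22), and ALDH1L2 rose 4.96-fold, from 2393 and 1718 to 9890 and 10239 (log2 2.31 ± 0.24, adjusted p = 9.96e-10). Of the other targets, VLDLR, a lipoprotein receptor, rose 8.09-fold and XPOT, the nuclear export receptor of tRNAs, rose 3.61-fold. CHAC1, which degrades glutathione, moved least of these, from 2292 and 3007 to 4665 and 5198 (log2 0.91 ± 0.28, adjusted p = 0.00752), and its call was lost in 3 of 14 other ways of processing.

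Among 7 amino acid transporters 6 rose. SLC6A9, the glycine transporter GlyT1, went from 356 and 204 to 5295 and 5376, or 19.7-fold (log2 4.30 ± 0.27, adjusted p = 1.16e-14). The heavy chain SLC3A2 pairs with SLC7A5 to import large neutral amino acids and with SLC7A11 to exchange glutamate for cystine. SLC3A2 went from 5076 and 5056 to 24879 and 22947 (log2 2.24 ± 0.09, adjusted p = 5.05e-19), and SLC7A5 from 4324 and 3128 to 22465 and 24884 (log2 2.68 ± 0.20, adjusted p = 1.62e-12). SLC7A11 had a pair mean of 43424 on day 0, against 7430 and 9270 in untreated cells (log2 2.39 ± 0.28). Per kb of exon the heavy chain and its partners stood on day 0 at 4618 for SLC3A2, 4989 for SLC7A5 and 4502 for SLC7A11. The exon length joins all annotated exons of a gene, so levels per kb of different genes can be compared only roughly.

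The cationic amino acid transporter SLC7A1 rose 3.48-fold and the glutamine transporter SLC1A5 rose 2.48-fold. SLC38A2, a neutral amino acid transporter of system A, was already at 38077 and 43195 in untreated cells and had a pair mean of 47173 on day 0 (log2 0.22 ± 0.13, adjusted p = 0.155). Per kb of exon, the untreated level of SLC38A2 was 6155, above ATF4 at 2624 and SLC1A5 at 2151, while DDIT3 stood at 220, SLC6A9 at 54.4 and CTH at 13.0. Among the members, low untreated levels per kb thus accompanied some of the largest differences, as in CTH and SLC6A9.

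Of the 31 members 17 overlap an annotated gene on the other strand, and the sources used here do not say whether strand was used in counting. Of the partners, 4 were followed. VLDLR-AS1 was at 6.54 and 8.02 in untreated cells and 224 and 198 on day 0, and SLC7A11-AS1 at 34.3 and 44.1 and then 136 and 232. MARS1, which overlaps DDIT3, went from 5119 and 4729 to 10593 and 11398. CEBPB-AS1 stayed at or under 21.8. Reads of these pairs cannot be told apart without strand.

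**Figure D2:**
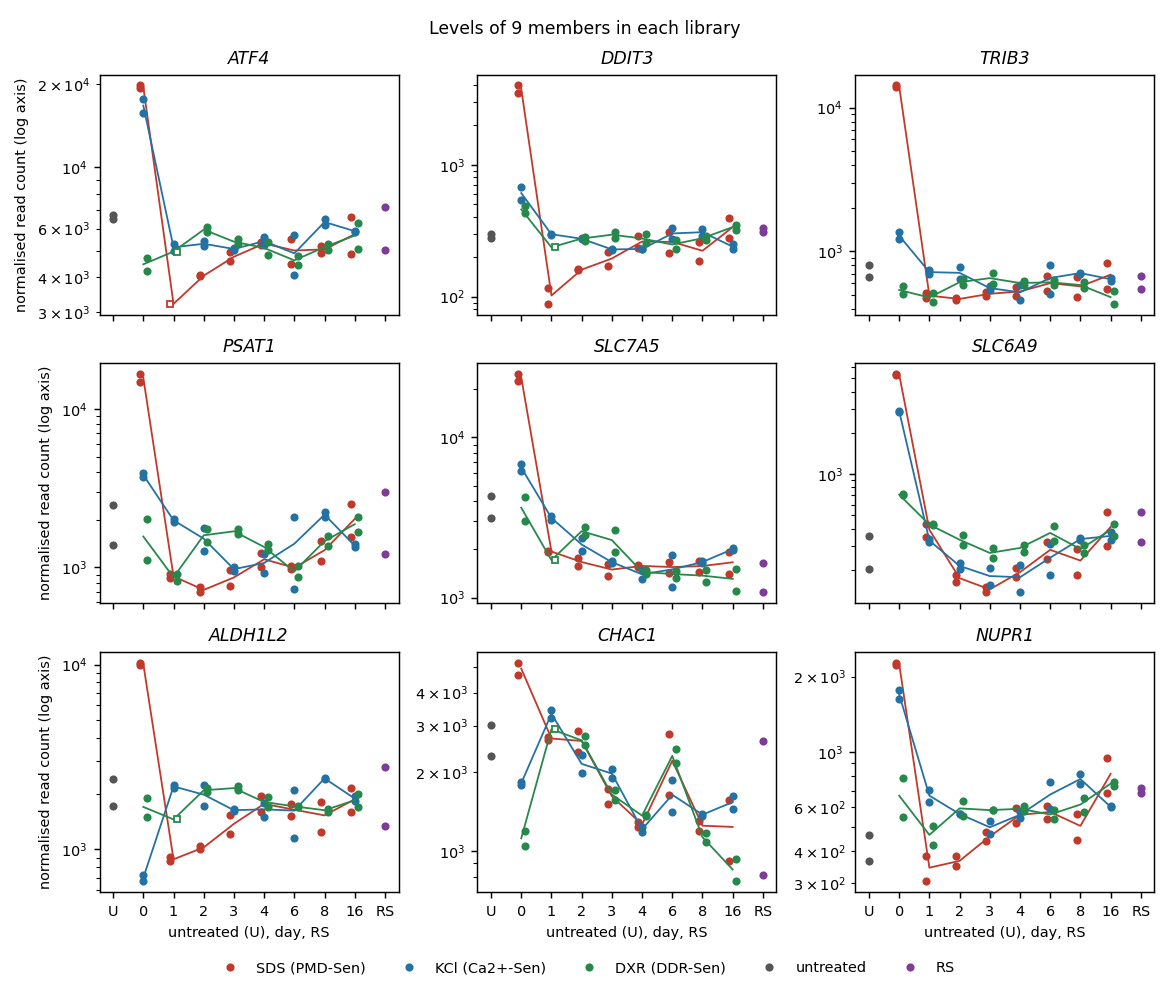
Normalised read count (log axis) by day for ATF4, DDIT3, TRIB3, PSAT1, SLC7A5, SLC6A9, ALDH1L2, CHAC1 and NUPR1, with untreated and RS cells beside the 3 inducers. Each point is 1 library, lines join group means, and open squares are pair means. TRIB3 stands at 14255 and 13875 on SDS day 0 and at 473 and 511 on SDS day 1, below both untreated libraries.

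The day 0 levels of PMD-Sen were gone within 24 h of washing. Against day 0, 30 of 31 members were lower on day 1 and 0 higher, where 26% of all genes were called lower. The median difference was -2.68 over the members and 0.03 over all genes. DDIT3 had fallen to 116 and 88.0 (log2 -5.20 ± 0.17, adjusted p = 2.75e-20), TRIB3 to 473 and 511 (log2 -4.84 ± 0.18), and CTH to 24.1 and 28.3 (log2 -5.23 ± 0.23). ATF4 fell less, to a pair mean of 3208 (log2 -2.61 ± 0.17), as did CEBPB (-0.91 ± 0.13), CHAC1 (-0.88 ± 0.28) and JDP2 (-0.84 ± 0.13). SLC38A2, the member that had not passed the test on day 0, did not pass it here (-0.05 ± 0.15).

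Several members went below untreated cells on day 1 rather than back to them. The untreated samples are labelled with no day. Time in culture and fresh medium after the wash therefore cannot be told apart from the inducer, here or on later days. Against untreated cells 15 of 31 were lower on day 1 and 0 higher, where 14.3% of all genes were called lower and 16.1% higher. The median over the members was -0.46, and over all genes 0.00. DDIT3 was at 116 and 88.0 against 298 and 277 in untreated cells (log2 -1.50 ± 0.17, adjusted p = 1.72e-07), and ATF4 was at 0.486-fold (log2 -1.04 ± 0.17, adjusted p = 2.67e-05). PSAT1, at 903 and 851, and SLC7A5, at 1951 and 1926, lay below both untreated libraries, as did MTHFD2 (log2 -1.05 ± 0.22), ALDH1L2 (-1.20 ± 0.24) and PYCR1 (-0.80 ± 0.16).

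Other members came back to the untreated level without a called difference. CHAC1 was at 2651 and 2705 (log2 0.03 ± 0.28, adjusted p = 0.953), NUPR1 at 384 and 305, and SLC6A9, at 437 and 350, reached above the untreated larger library in 1 of its libraries. SHMT2 stood at 3132 and 3472, against 3760 and 3569. A difference that misses the threshold does not show that these levels were equal.

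The size of this undershoot depends on the untreated pair. In 27 of 31 members the untreated library with more reads was the higher one, by a median log2 difference of 0.28, where the median over all genes was 0.00. Without that library 10 members were lower and 1 higher than untreated cells, with a median of -0.35, and without the other untreated library 16 were lower and 0 higher, with a median of -0.62. On day 0 the count hardly moved, with 29 and 28 members higher.

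The lower levels went on over the following days. On day 2, 18 members were lower and 0 higher than in untreated cells (7.83% of all genes called lower, 12.8% higher), with a median of -0.59. ASNS was at 3.68 and 1.53, from 6 and 2 reads, against 37.6 and 18.0 in untreated cells, from 23 and 9 reads. Its log2 difference of -2.98 ± 0.49 therefore says little about size. PHGDH was at 847 and 807 (log2 -1.39 ± 0.24), and SLC3A2 was at 2965 and 2692 (log2 -0.84 ± 0.09, adjusted p = 1.74e-07). On day 3, 15 were lower (9.71% of all genes), on day 4, 12 lower and 1 higher (11.7% and 12.3%), on day 6, 13 lower and 2 higher (15% and 15.8%), and on day 8, 11 lower (13.1%). By day 16 the calls were split, with 8 lower and 6 higher (23% and 20.6% of all genes), and the median over the members was -0.14. The shares of members on day 16, 25.8% lower and 19.4% higher, were close to those of all genes.

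Without the larger untreated library these counts of lower members became 12, 6, 8, 5 and 6 on days 2, 3, 4, 6 and 8, and 3 on day 16, where 5 were higher. Asking for a log2 difference of at least 1 left 6, 4, 3, 2 and 3 lower members on days 2, 3, 4, 6 and 8. Fitting only the groups compared gave 9 lower and 0 higher on day 6. Against day 0 the members stayed low, since on day 2 all 31 were lower (24.7% of all genes called lower) and on day 16, 28 were lower and 0 higher (30.1% of all genes called lower). These comparisons share the day 0 libraries with those against untreated cells, so they are not separate evidence for the day 0 rise.

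**Figure D3:**
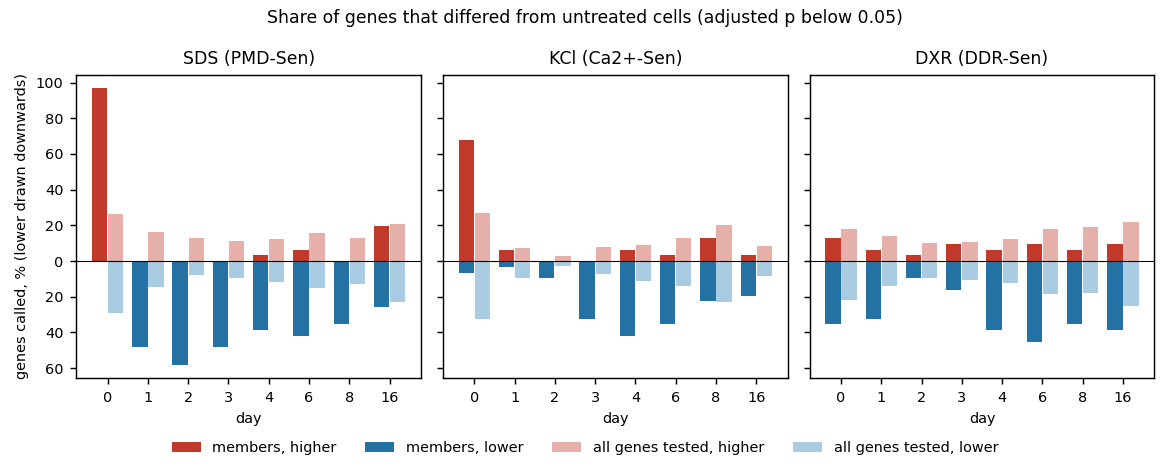
Percent of the 31 members and of all 15606 genes tested that were called higher (above 0) or lower (below 0) than untreated cells, by inducer and day. On SDS day 0, 30 members are called higher beside 26.5% of all genes, and on SDS day 2, 18 members are called lower beside 7.83% of all genes.

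In Ca2+-Sen the day 0 rise took in fewer members and was smaller. Directly after 24 h in KCl, 21 of 31 members were higher and 2 lower than in untreated cells, where 26.9% of all genes were called higher and 32.4% lower. The median difference was 0.64 over the members and -0.05 over all genes, and 11 members were at least 2-fold higher. This split depended on how libraries were scaled. Scaling by upper quartile moved the median of all genes by -0.31 and gave 14 higher and 4 lower, with PSAT1, PHGDH, PSPH, SLC7A1, SLC7A5, SLC1A5 and CEBPG no longer called. Without the larger untreated library 20 were higher and 1 lower, and without the smaller 15 and 2.

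All 8 transcription factors and regulators rose in Ca2+-Sen, CEBPG not with upper quartile scaling, with a median of 1.10. ATF4 stood at 15779 and 17660 (log2 1.34 ± 0.14, adjusted p = 1.47e-09), CEBPB at 5903 and 6830 (log2 1.12 ± 0.13, adjusted p = 5.77e-09), and NUPR1 at 1627 and 1769 (log2 2.04 ± 0.15, adjusted p = 7.22e-13). DDIT3, at 541 and 676, and TRIB3, at 1210 and 1360, also lay above both untreated libraries, by 2.10-fold and 1.75-fold.

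The 7 transporters were all called higher in Ca2+-Sen, of which SLC7A1, SLC7A5 and SLC1A5 were not with upper quartile scaling, with a median of 0.64. SLC6A9 had the largest difference, at 2914 and 2857 (log2 3.41 ± 0.27, adjusted p = 1.93e-12), and SLC38A2, not called in PMD-Sen, stood at 59083 and 63950, above both untreated libraries (log2 0.60 ± 0.10, adjusted p = 8.29e-05). In the amino acid synthesis group, PCK2 included, 6 rose, among them ASNS (131 and 111, log2 2.17 ± 0.49) and CTH (128 and 127, log2 1.99 ± 0.23). PCK2 was at 68.6 and 100 against 9.81 and 6.01 (log2 3.27 ± 1.31), again from few untreated reads, and its call was lost in 5 of 13 other ways of processing, among them leaving out any 1 of its 4 libraries.

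The mitochondrial folate genes and PYCR1 were not called higher in Ca2+-Sen. ALDH1L2 fell to 672 and 727, below both untreated libraries (log2 -1.54 ± 0.24, adjusted p = 1.70e-06), and PYCR1 fell to 1268 and 1284 (log2 -0.43 ± 0.16, adjusted p = 0.0207), a call lost in 4 of 14 other ways of processing. SHMT2 (log2 -0.08) and MTHFD2 (log2 0.35) were not called, and CHAC1 was at 1789 and 1834, under both untreated libraries without passing the test (log2 -0.54 ± 0.28, adjusted p = 0.107).

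After KCl was washed out most members moved back toward the untreated level. On day 1, 21 of 31 were lower and 3 higher than on day 0 (28% and 31.6% of all genes), with a median of -0.84. Scaling by upper quartile moved the median of all genes by 0.29 here and gave 16 lower and 4 higher. Against untreated cells 2 were higher on day 1, NUPR1 (633 and 704, log2 0.69 ± 0.15) and CTH (50.9 and 53.6, log2 0.72 ± 0.23), and 1, VLDLR, was lower (173 and 187, log2 -0.84 ± 0.27), where 7.3% of all genes were called higher and 9.45% lower. The CTH call was lost in 9 of 13 other ways of processing, upper quartile scaling among them, and the VLDLR call in 5 of 14. The 3 members that rose from day 0 to day 1 were ALDH1L2, to 2224 and 2151 (log2 1.64 ± 0.24, adjusted p = 5.12e-07), CHAC1, to 3209 and 3436 (log2 0.87 ± 0.28), and PYCR1, to 1673 and 1840 (log2 0.46 ± 0.16).

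In Ca2+-Sen more members were called lower on days 3, 4 and 6 than on day 2. On day 2, 3 members were lower (2.51% of all genes called lower), on day 3, 10 (7.39%), on day 4, 13 with 2 higher (11% of all genes lower, 9.24% higher), and on day 6, 11 with 1 higher (13.8% and 13.1%). On day 8, 7 were lower and 4 higher (22.7% and 20.4% of all genes), and on day 16, 6 were lower and 1 higher (8.16% and 8.23%). The lower share of members on day 8, 22.6%, was close to that of all genes. Fitting only the groups compared gave 4 lower and 1 higher on day 2, and 3 lower and 0 higher on day 6. Without the larger untreated library the lower members numbered 5 on days 3, 4 and 6, 4 on day 8 and 0 on day 16. Upper quartile scaling gave 1 lower on day 2, 4 on day 3, and 11 lower and 3 higher on day 8, while a fit without the 3 groups with the widest pairs gave 7 lower on day 2 and 16 on day 3. Against day 0 of KCl, 24 members were lower and 3 higher on day 2 (27.6% and 32.7% of all genes), and 23 lower and 2 higher on day 16 (27% and 31.7%).

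After DXR few members rose. On day 0 of DDR-Sen, 4 of 31 members were higher and 11 lower than in untreated cells, where 18.2% of all genes were called higher and 21.7% lower. The median difference was -0.30 over the members and -0.02 over all genes. Upper quartile scaling moved the median of all genes by -0.22 and gave 4 higher and 14 lower, and without the larger untreated library 5 were higher and 8 lower.

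ATF4 was lower, at 4717 and 4204 against 6704 and 6490 (log2 -0.57 ± 0.14, adjusted p = 0.00142), with no overlap of the pairs. CHAC1 was at 1193 and 1046 (log2 -1.23 ± 0.28, adjusted p = 0.000813), CEBPG at 382 and 463 (log2 -0.90 ± 0.17, adjusted p = 6.41e-05), PHGDH at 1175 and 1223 (log2 -0.85 ± 0.24, adjusted p = 0.00464), and SHMT2 at 2146 and 2300 (log2 -0.72 ± 0.12, adjusted p = 2.49e-05). SLC7A1 had a pair mean of 1415 against 3534 and 2620 (log2 -1.10 ± 0.22). The call of TRIB3, at 507 and 571 (log2 -0.45 ± 0.18, adjusted p = 0.0486), was lost in 7 of 14 other ways of processing.

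The 4 members that rose with DXR were SLC6A9, to 714 and 704 (log2 1.39 ± 0.27, adjusted p = 8.50e-05), NUPR1, to 551 and 786 (log2 0.67 ± 0.15), DDIT3, to 429 and 487 (log2 0.67 ± 0.17), and CEBPB, to 3918 and 5212 (log2 0.63 ± 0.13). In each of them both libraries lay above both untreated libraries. SLC6A9 differed from untreated cells by log2 4.30, 3.41 and 1.39 after SDS, KCl and DXR, and NUPR1 by 2.44, 2.04 and 0.67. These comparisons share the same untreated pair. This order did not hold for all 4 members in the main fit. Between SDS and KCl, CEBPB differed by -0.05, not called, while DDIT3 was higher after SDS by 2.63.

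From day 0 to day 1 of DDR-Sen, 3 members rose and 5 fell, where 10.4% of all genes were called higher and 8.56% lower. For 14 members only a pair mean could be worked out on day 1. The risers were CHAC1, to a pair mean of 2905 (log2 1.38 ± 0.35, adjusted p = 0.00509), SLC38A2 (log2 0.48 ± 0.15) and JDP2 (log2 0.43 ± 0.13). The members that fell were MTHFD2 (log2 -1.13 ± 0.22), SLC7A5 (-1.07 ± 0.25), DDIT3 (-0.95 ± 0.21), CEBPB (-0.63 ± 0.15) and NUPR1 (-0.50 ± 0.15), whose call was lost in 5 of 14 other ways of processing. With upper quartile scaling 5 rose and 4 fell.

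Against untreated cells, day 1 of DDR-Sen had 2 higher and 10 lower members (13.8% and 14.1% of all genes), day 2 had 1 and 3 (9.89% and 9.69%) and day 3 had 3 and 5 (10.9% and 10.4%). Day 4 had 2 and 12 (12.1% and 12.5%), day 6 had 3 and 14 (18% and 18.3%) and day 8 had 2 and 11 (18.9% and 18.1%). Upper quartile scaling gave 0 higher and 10 lower on day 1, 1 higher and 3 lower on day 3, and 0 higher and 15 lower on day 6. Without the larger untreated library the lower members numbered 5, 2, 0, 8, 10 and 7 on these days. Against day 0, 8 rose and 4 fell by day 2 (14.7% and 10.9% of all genes), and 4 rose and 4 fell by day 16 (19.8% and 21.2%). Upper quartile scaling made these 10 and 3 on day 2, and 2 and 5 on day 16.

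**Figure D4:**
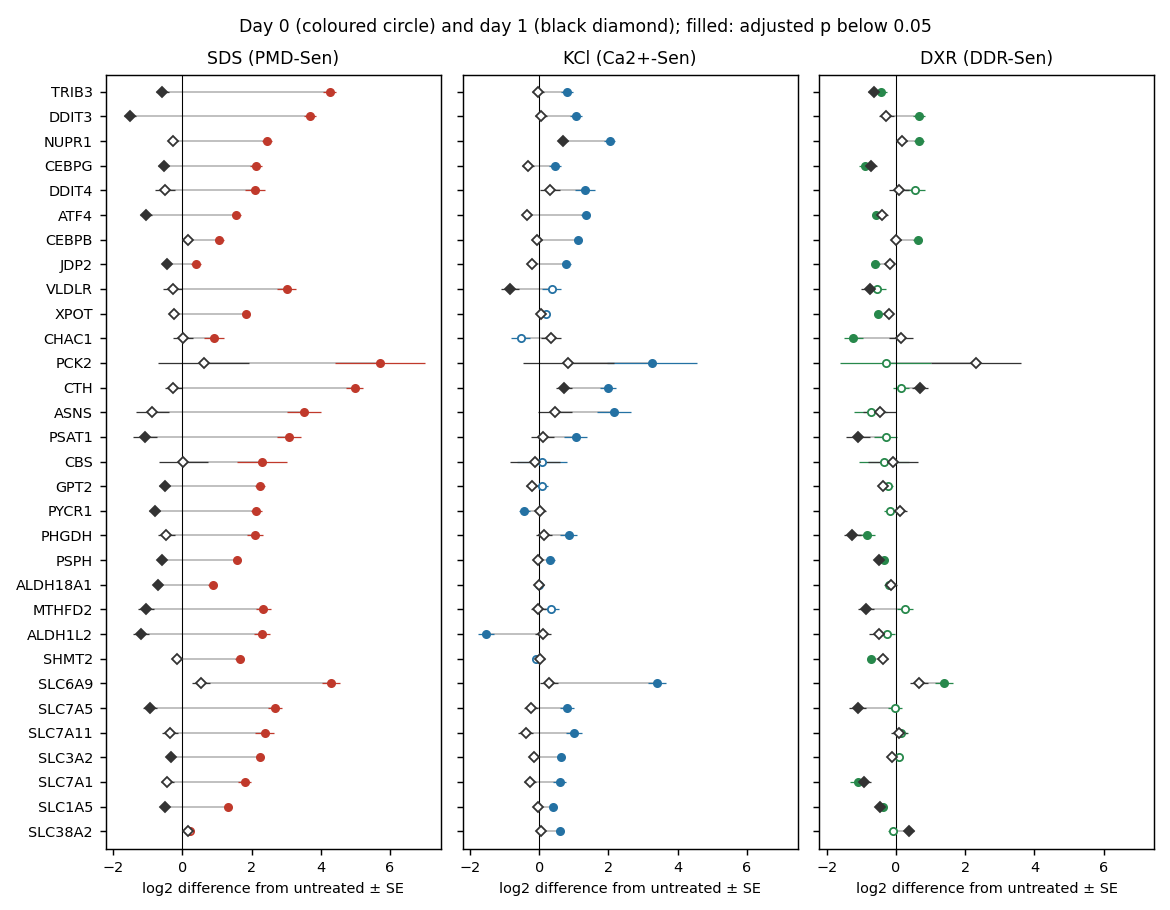
Log2 difference from untreated cells of each member on day 0 (coloured circles) and day 1 (black diamonds) for SDS, KCl and DXR, with bars of 1 standard error. Filled symbols are called at an adjusted p below 0.05. After SDS, TRIB3 goes from 4.26 on day 0 to -0.58 on day 1, and after KCl, ALDH1L2 is the member farthest below 0 on day 0, at -1.54.

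The inducers were then compared with each other on day 0, without the untreated libraries. PMD-Sen exceeded DDR-Sen in 30 of 31 members and was lower in 0 (28.4% of all genes called higher), with a median of 2.38. The differences ran from 0.31 ± 0.15 in SLC38A2, which was called only with upper quartile scaling among the scalings run, through 2.13 ± 0.14 in ATF4 to 4.83 ± 0.23 in CTH and 6.02 ± 1.31 in PCK2. Against Ca2+-Sen, 26 members were higher in PMD-Sen and 2 lower (33.1% and 31% of all genes), with a median of 1.60.

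Between SDS and KCl the sizes differed among the members. ATF4 differed by 0.23 ± 0.14 (adjusted p = 0.153) and CEBPB by -0.05 ± 0.13 (adjusted p = 0.735), neither called. With upper quartile scaling both were called higher in PMD-Sen, ATF4 by 0.60 ± 0.16 (adjusted p = 0.00194) and CEBPB by 0.32 ± 0.13 (adjusted p = 0.0324). TRIB3 differed by 3.45 ± 0.18 (adjusted p = 8.19e-17), DDIT3 by 2.63 ± 0.17, CTH by 2.99 ± 0.23, PYCR1 by 2.57 ± 0.16 and ALDH1L2 by 3.85 ± 0.24 (adjusted p = 6.11e-15). JDP2 (-0.39 ± 0.13, adjusted p = 0.0102) and SLC38A2 (-0.38 ± 0.13, adjusted p = 0.0137) were the members lower in PMD-Sen, and neither was called with upper quartile scaling. That scaling moved the median of all genes by 0.37 in this comparison, and with it 28 members were higher and 0 lower.

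Ca2+-Sen exceeded DDR-Sen in 25 members and was lower in 1 (29.4% and 31.3% of all genes), with a median of 0.78. ATF4 differed by 1.91 ± 0.14 (adjusted p = 7.06e-13), SLC6A9 by 2.02 ± 0.27 and PHGDH by 1.71 ± 0.24. ALDH1L2 was the member lower in Ca2+-Sen, by -1.27 ± 0.24 (adjusted p = 2.81e-05), with 672 and 727 after KCl against 1490 and 1896 after DXR.

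The change from day 0 to day 1 was itself compared between inducers. It was more negative in PMD-Sen than in DDR-Sen for 30 members and more positive for 0 (20.5% of all genes called more negative), with ATF4 at -2.76 ± 0.24 and TRIB3 at -4.66 ± 0.26. Against Ca2+-Sen it was more negative in PMD-Sen for 25 members and more positive for 1, SLC38A2 (27.2% and 26.8% of all genes). ALDH1L2 had the largest such difference, -5.16 ± 0.33, and SLC6A9 did not pass the test, at -0.63 ± 0.38. Upper quartile scaling moved the median of all genes by -0.31 in this comparison and gave 27 more negative and 0 more positive, with SLC6A9 called and SLC38A2 not. Between Ca2+-Sen and DDR-Sen 17 were more negative and 2, ALDH1L2 and MTHFD2, more positive in Ca2+-Sen (22% and 24.4% of all genes). With upper quartile scaling, which moved the median of all genes by 0.16, the last count became 10 and 2.

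At the late times calls went in both directions. In RS 5 were higher and 10 lower than in untreated cells (23.2% and 24.2% of all genes), and on day 16 of DDR-Sen 3 were higher and 12 lower (21.8% and 25.1%). On day 16 of PMD-Sen the numbers were 6 and 8, shares of members close to the 20.6% and 23% of all genes. Upper quartile scaling moved the median of all genes by -0.24 in RS, -0.17 on day 16 of PMD-Sen and -0.29 on day 16 of DDR-Sen, and gave 1 higher and 13 lower, 4 and 11, and 1 and 14.

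SLC7A5 was among the members that were lower. It was at 1076 and 1647 in RS, 1397 and 1924 on day 16 of PMD-Sen, 2042 and 1971 in Ca2+-Sen and 1101 and 1516 in DDR-Sen, all below the untreated 4324 and 3128. The log2 differences were -1.47 ± 0.20, -1.17 ± 0.20, -0.87 ± 0.20 and -1.51 ± 0.20. These standard errors rest on the spread shared by all groups, although the pairs of RS and of day 16 of PMD-Sen were the widest. Fitting only the groups compared gave 1 higher and 2 lower members in RS, and 2 and 5 on day 16 of PMD-Sen. SLC7A1 differed in the same order of groups by -1.23, -1.34, -0.60 and -1.58, MTHFD2 by -0.90, -0.69, -0.65 and -0.76, and PSPH by -0.51, -0.34, -0.46 and -0.52, and each of these was called. Without the larger untreated library 0 members were lower on day 16 of Ca2+-Sen, and the MTHFD2 call there was lost in 5 of 14 other ways of processing.

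With the same untreated pair in each comparison, NUPR1 was higher at each of these times, at 683 and 714 in RS, 688 and 946 on day 16 of PMD-Sen, 601 and 605 in Ca2+-Sen and 734 and 760 in DDR-Sen, against 464 and 367 in untreated cells. The log2 differences were 0.76 ± 0.15, 0.97 ± 0.15, 0.55 ± 0.15 and 0.85 ± 0.15, and the call on day 16 of Ca2+-Sen was lost in 5 of 14 other ways of processing. VLDLR was called higher in RS (log2 0.64), on day 16 of PMD-Sen (1.03) and on day 16 of DDR-Sen (0.83), though its RS call, at 336 and 751, was lost in 8 of 13 other ways of processing and its DDR-Sen call in 5 of 14. ATF4 was not called in RS or on day 16 of any inducer, with log2 differences from -0.23 to -0.13. CHAC1 in RS had libraries as far apart as 2624 and 814, and its called difference (log2 -0.84 ± 0.28) rests on the lower of them, as it ran from -1.69 to -0.0007 over other ways of processing that included leaving out 1 library.

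Within pairs the members often moved together, which touches the later days most. In RS 24 of 31 members were lower in the library with more reads, by a median of -0.43, on day 16 of PMD-Sen 28 of 30 with 2 values were (-0.45), and on day 6 of Ca2+-Sen 25 of 31 were higher (0.33), while the median over all genes was between -0.03 and 0.00 in these pairs. On day 0 of PMD-Sen the members' 2 libraries lay a median of 1.08-fold apart, and in RS 1.5-fold. Without the larger untreated library RS had 3 higher and 6 lower members, and day 16 of PMD-Sen 5 and 3. What sets the members apart between libraries of a group was not tested.

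**Figure D5:**
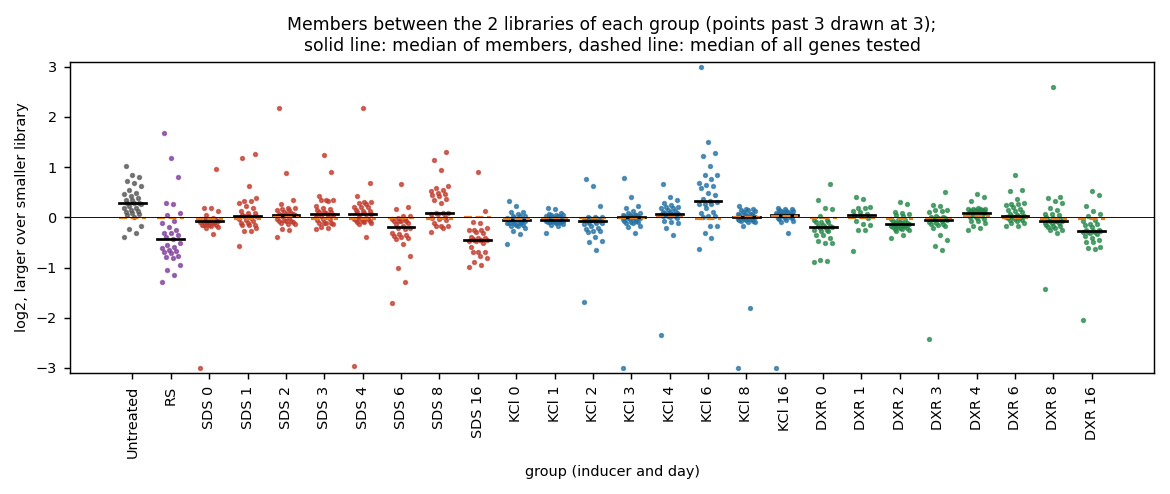
Log2 ratio of the library with more reads to the one with fewer, for each member (points) in each of the 26 groups, with the median of the members (solid) and of all genes (dashed). Points past 3 are drawn at 3. The members' median is 0.28 in untreated cells, -0.43 in RS and -0.45 on SDS day 16, while the dashed line stays near 0.

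A further list of 42 genes of the pathway, chosen in the same way, put the members in context, and 40 of them passed the filter on low levels. SESN2 and VARS1 did not, with mean levels of 0.248 and 1.05. On day 0 of PMD-Sen 28 of the 40 were higher and 6 lower (26.5% and 29.1% of all genes), with a median of 1.04. All 12 aminoacyl-tRNA synthetases, which charge tRNAs with amino acids, rose, by a median of 1.22 and from 0.37 (LARS1) to 1.80 (GARS1). On day 1 11 of the 12 were lower than on day 0 (26% of all genes). After KCl 3 rose and 3 fell, shares close to the 26.9% and 32.4% of all genes. After DXR 1 rose and 9 fell (18.2% and 21.7% of all genes), and in RS 0 rose and 8 fell (23.2% and 24.2%).

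Of the 12 kinases and subunits of eIF2 and eIF2B, which set the response off and recycle the initiation factor, 6 rose and 3 fell on day 0 of PMD-Sen, beside the 26.5% and 29.1% of all genes. EIF2AK3, the kinase PERK of the endoplasmic reticulum, had the largest difference of these, 2.02. ATF3, a stress-induced factor downstream of ATF4, went from 391 and 419 to 5522 and 3782 after SDS (log2 3.49 ± 0.26, adjusted p = 8.50e-13) and to 1385 and 2142 after KCl (log2 2.09 ± 0.26). SLC1A4, a neutral amino acid transporter, rose to 3049 and 3438 after SDS from 649 and 417 (log2 2.64 ± 0.20).

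SHMT1 and MTHFD1 are cytosolic enzymes of folate metabolism. SHMT1 was called lower after SDS, going from 31.1 and 62.2 to 2.48 and 0, and after DXR, at 0.580 and 2.64, levels too low for a fold to be read. MTHFD1 went from 2954 and 2510 to 840 and 992 after KCl (log2 -1.58 ± 0.12, adjusted p = 2.11e-12) and to 1268 and 1312 after DXR (log2 -1.08 ± 0.12). Of the transporters in this list, SLC7A6 rose to 2418 and 2124 after KCl from 884 and 922 (log2 1.33 ± 0.11), and SLC7A8 rose to 45.8 and 58.1 after DXR from 8.17 and 16.0 (log2 2.07 ± 0.39).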

How the data were processed

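mRNA of WI-38 cells was sequenced on an Illumina NovaSeq as paired ends. The submitters' processing notes name Trim Galore, HISAT2, HTSeq, featureCounts, DESeq2 and the builds GRCh38 and hg38, without their roles. The authors deposited, for each comparison with untreated cells, the mean normalised count of each gene over the 4 libraries compared, a signal that is never negative and that DESeq2 writes in this form, beside fold changes with their standard errors, test statistics and p-values of their own, which were not used. The 52 deposited files hold 25 distinct tables, with 0 further columns of values for single samples. The design was written for values per library, and since the unit is a mean, the libraries were first recovered from it.

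Each mean is a sum of 4 whole counts divided by size factors, 2 of them the libraries common to all tables, taken as the untreated pair. In the 10 tables printed with 15 digits the counts were solved jointly for all 59408 genes. In the 15 printed with 10 digits, a pair of counts was accepted at any ratio where it was the only one possible. Of several possible pairs, 1 was accepted where it alone lay within 4-fold or had under 10 reads in all. The 4-fold limit was chosen after seeing the data. Otherwise the mean of the pair was entered as 1 library, assumed to vary like the others. This concerned 3448 genes somewhere, 15 members among them, and most often day 1 of DXR (18.8% of the genes at or above a mean of 10). On simulated tables of 15 digits 3000 of 3000 genes were recovered. When the 15-digit tables were cut to 10 digits, 79.8 to 98.8% of genes were solved and 99.99 to 100% of these were right. The recovered libraries carry no replicate number and are named by their counted reads (15.3 to 55.5 M). In every group they differed by more than sampling noise.

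Counts were scaled by median of ratios over 12699 genes and fitted as log2(count + 1) with limma 3.58.1 in R 4.3.3 (trend, 26 groups, 26 residual degrees of freedom), on 15606 genes with a mean of at least 10, with two-sided tests and Benjamini-Hochberg adjustment per comparison at 0.05. With 2 libraries a group the spread is borrowed from all groups. Data were simulated for day 0 of SDS against untreated cells with 200 of 15606 genes changed. Of genes changed by log2 0.5, 1 and 2, 37.3%, 74.6% and 89.4% were called, and 9 of the 143 calls were unchanged genes. In day 0 of KCl, simulated with 0 changed genes, 0 were called. In the real SDS comparison 55.6% of genes were called, so these rates need not hold there. All 31 members were named, and from the other pathway genes the 3 with the largest called change in size on day 0 of each inducer. LARS1, GARS1 and EIF2AK3, as the ends of a range, and overlapping genes were named after their values were seen. The members and lists were chosen with earlier results of these data known. Gene positions and exon lengths came from GENCODE, promoters from RefSeq. Python 3.11.15, numpy 2.4.6, pandas 2.3.3 and matplotlib 3.10.9 were used. Alternatives were scaling by library totals or upper quartile, a pseudocount of 5, a minimum mean of 1 or 100, a minimum log2 difference of 1, voom weights, fits of only the groups compared and leaving out each library. No limit on the ratio within a pair and leaving out the 3 groups with the widest pairs were added after seeing the data.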

Additional observations from a re-analysis of the deposited data

Results flagged for a closer look

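In 7 tests a member changed in opposite directions from day 0 to day 1 after different inducers, and the difference between the changes passed the limma interaction test. CHAC1, which degrades glutathione, fell by 0.88 on the log2 scale after SDS and rose by 0.87 after KCl and 1.38 after DXR, so that the SDS change differed from the KCl change by -1.75 (SE 0.40, adjusted p = 0.000462) and from the DXR change by -2.26 (SE 0.45, adjusted p = 0.000139). Its DXR day 1 level is a pair mean. ALDH1L2, the mitochondrial folate dehydrogenase, fell by 3.51 after SDS and rose by 1.64 after KCl, a difference of -5.16 (SE 0.33, adjusted p = 6.8e-14). PYCR1, the last enzyme of proline synthesis, fell by 2.94 after SDS and rose by 0.46 after KCl, a difference of -3.39 (SE 0.23, adjusted p = 1.18e-13).

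JDP2, the AP-1 repressor, rose by 0.43 after DXR. The SDS change differed from this by -1.27 (SE 0.19, adjusted p = 1.67e-06) and the KCl change by -1.42 (SE 0.19, adjusted p = 1.95e-07). SLC38A2, the system A transporter, fell by 0.54 after KCl and rose by 0.48 after DXR, where both days are pair means, a difference of -1.03 (SE 0.18, adjusted p = 0.000144). Groups of 2 libraries are too small for a search for single samples that stand apart.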

How the results depend on the processing

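Direction was checked against untreated cells on days 0, 1 and 16 and in RS, and from day 0 to day 1. In these comparisons no member's called difference turned its direction under any alternative run. Outside them, CEBPB between SDS and KCl on day 0 went from -0.05, not called, to 0.32, called higher, with upper quartile scaling. Of 5454 pairings of a member's comparison with an alternative among those checked, 5018 kept their side of the threshold, 330 lost and 106 gained a call. Asking for a log2 difference of at least 1 left, of the members called against untreated cells, 5 on day 1 and 5 on day 16 of SDS, 12 on day 0, 0 on day 1 and 0 on day 16 of KCl, 3 on day 0, 3 on day 1 and 4 on day 16 of DXR and 3 in RS, in all 101 of 328 calls. It left 12 members from day 0 to day 1 of KCl, 3 from day 0 to day 1 of DXR, 13 between KCl and DXR on day 0, 11 for the KCl against DXR difference in change, and 222 of 798 calls in the other pathway genes. Fitting only the groups compared gave 7 members on day 16 of SDS, 11 on day 16 of KCl and 3 in RS. With voom weights 1 member was called on day 1 of KCl. Without the 3 groups with the widest pairs (RS, day 16 of SDS, day 6 of KCl) 11 were called on day 16 of KCl and 13 from day 0 to day 1 of DXR. Upper quartile scaling gave 12 for the KCl against DXR difference in change, and library totals moved the median of all genes by at most 0.09.

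Leaving out 1 library at a time gave 27 to 29 members on day 0 of SDS, 10 to 16 on day 1 and 8 to 13 on day 16, 17 to 21 on day 0 of KCl, 1 to 1 on day 1 and 1 to 7 on day 16, 12 to 15 on day 0 of DXR, 4 to 10 on day 1 and 10 to 14 on day 16, and 9 to 15 in RS. It gave 2 to 7 from day 0 to day 1 of DXR, 16 to 28 for the SDS against DXR difference in change and 6 to 17 for that of KCl against DXR. The lowest of these on day 1 of DXR and in both differences arose without a DXR day 1 library, where 17 members could be tested. Those on day 16 of SDS and KCl and in RS arose without the larger untreated library.

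No paired analysis was possible because the recovered libraries carry no replicate number. With 2 libraries a group and low untreated levels of PCK2, ASNS, CTH and CBS, sizes for these members are imprecise. The untreated pair enters every comparison with untreated cells, and it was the smallest in counted reads.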
